A study of Homo sapiens with 6 samples.

Results

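The genes described here are 7 dual-specificity phosphatases, DUSP1, DUSP2, DUSP3, DUSP8, DUSP10, DUSP14 and DUSP16, measured in 2 human osteosarcoma lines. They were chosen by symbol, with the changes of these arrays between vector and control already known. The members were therefore selected on measured values, and their vector minus control values are given as a description with no test. The probe annotation mapped 16 probe sets of the 54675 on the array to these 7 of 19775 genes. A gene with several probe sets was represented by the one with the highest mean over all arrays. All 7 genes reached the level filter, which left 12958 genes for testing. Of their 16 probe sets, 15 reached it, and a DUSP16 probe set (1563505_at, mean log2 level 4.87 against a filter of 5.11) did not.

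KHOS and U-2OS are established lines, and each had 1 Affymetrix U133 Plus 2.0 array for pEP-miR-1, 1 for pEP-miR-Null and 1 for control, so 6 arrays in all. The first vector carries miR-1, a microRNA abundant in muscle, and the second is its empty counterpart. Vectors were delivered with Lipofectamine LTX and Plus Reagent for 48 hours, and the RNA on each array was a pool from 3 flasks. No vector is named for the control arrays, and the sources used here do not say whether control cells were exposed to the transfection reagent. Each line is a single cell line, with 1 control array, so p-values measure only the spread between these pooled arrays. No array had a replicate. In the fit with terms for line and treatment, the spread is what those terms leave over. It therefore includes any response to treatment that differed between the lines.

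The values were log2 expression levels from robust multi-array averaging (RMA), with array medians between 4.98 and 5.15. The spread of the arrays was less alike. The interquartile range was 3.24 to 3.36 in KHOS, 3.07 on the U-2OS control array, and 2.75 and 2.84 on the U-2OS miR-1 and miR-null arrays. Quantile normalization, which gives all arrays the same distribution, was therefore run as an alternative, and values under it are given below. Within a line, pairs of arrays correlated at 0.978 to 0.996 over probe sets, and between lines at 0.91 to 0.937. Of the osteoblast and mesenchymal markers with a probe set, 6 of 9 reached the level filter, and VIM, SPARC and COL1A1 among them were at log2 10.07 or more on every array. CDH11 was at 10.08 to 11.10 in KHOS but 4.09 to 6.17 in U-2OS, and COL1A2 was below the filter at 4.33 to 4.67. Of the blood markers 2 of 4 reached the filter, at 5.07 to 7.40, while PTPRC reached at most 3.75. Of the endothelial markers 1 of 4 did, at 5.69 to 6.54, while CDH5 reached at most 3.89, and of the epithelial markers 1 of 5 did, while CDH1 reached at most 4.45. The osteoblast factor RUNX2 was at 9.83, 9.85 and 8.98 on the KHOS miR-1, miR-null and control arrays, but at or below 6.74 on the U-2OS arrays. The osteoblast markers SP7 and ALPL were below the level filter in both lines. EPCAM, the epithelial marker past the filter, was at 8.43 to 8.70 in KHOS and 5.49 to 5.96 in U-2OS. Whole transcript pools were measured, so fewer cells of a kind and less RNA per cell cannot be told apart.

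Cells answer stress, cytokines and DNA damage through the mitogen-activated protein kinases (MAPKs) p38 and JNK. These are switched on when upstream kinases phosphorylate a threonine and a neighbouring tyrosine in the activation loop, and dual-specificity phosphatases switch them off by removing both phosphates. The classical MAPK phosphatases bind their kinase through a docking domain. Among them, DUSP1 (MKP-1) and DUSP2 (PAC-1) are nuclear and are transcribed as immediate early genes, so the pathway induces its own brake. DUSP8, DUSP10 (MKP-5) and DUSP16 (MKP-7) act mainly on JNK and p38. DUSP3 (VHR) and DUSP14 (MKP-6) are small atypical members without that docking domain.

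The promoters of the members that differed most between vector and control arrays, DUSP1, DUSP10 and, in U-2OS, DUSP2, are printed with that of DUSP8 for their sequence elements. They come from RefSeq on GRCh38.p14, run 5′ to 3′ on the minus strand of the chromosome, and span 250 bases before to 50 bases after a transcription start. All 7 members had a promoter in the table, and DUSP10 had 2, so 8 were searched on both strands. Capitals mark the cyclic AMP response element (CRE, TGACGTCA), its core (TGACG), the AP-1 site (TGANTCA) and a C/EBP-ATF site (TGATGNAA). A core on the other strand appears as its reverse complement. DUSP1 is at chr5:172771146-172771445, the 2 DUSP10 promoters at chr1:221742040-221742339 and chr1:221736851-221737150, DUSP2 at chr2:96145391-96145690 and DUSP8 at chr11:1572222-1572521.
DUSP1 promoter: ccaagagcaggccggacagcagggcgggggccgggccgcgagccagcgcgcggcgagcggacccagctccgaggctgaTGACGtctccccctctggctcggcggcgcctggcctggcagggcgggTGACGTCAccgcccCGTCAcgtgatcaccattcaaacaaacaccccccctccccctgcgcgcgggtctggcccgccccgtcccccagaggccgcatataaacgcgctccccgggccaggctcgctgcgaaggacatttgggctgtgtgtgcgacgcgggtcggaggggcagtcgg
DUSP10 promoter 1: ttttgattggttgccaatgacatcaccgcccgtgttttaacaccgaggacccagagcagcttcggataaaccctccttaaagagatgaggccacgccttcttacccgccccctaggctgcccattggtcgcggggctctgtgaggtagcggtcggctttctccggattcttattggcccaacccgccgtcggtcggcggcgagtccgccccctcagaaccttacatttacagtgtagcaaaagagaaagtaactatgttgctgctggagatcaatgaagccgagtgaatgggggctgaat
DUSP10 promoter 2: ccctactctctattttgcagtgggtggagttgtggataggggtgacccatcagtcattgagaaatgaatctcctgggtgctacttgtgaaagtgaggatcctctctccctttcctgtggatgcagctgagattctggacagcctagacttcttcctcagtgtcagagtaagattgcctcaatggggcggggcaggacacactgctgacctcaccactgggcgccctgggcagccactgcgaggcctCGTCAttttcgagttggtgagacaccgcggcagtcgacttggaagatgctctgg
DUSP2 promoter: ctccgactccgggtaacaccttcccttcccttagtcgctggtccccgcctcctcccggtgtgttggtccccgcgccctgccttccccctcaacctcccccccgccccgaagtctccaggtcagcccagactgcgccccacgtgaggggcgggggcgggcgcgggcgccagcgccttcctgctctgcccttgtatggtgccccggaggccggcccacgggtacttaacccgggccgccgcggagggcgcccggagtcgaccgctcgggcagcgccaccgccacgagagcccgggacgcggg
DUSP8 promoter: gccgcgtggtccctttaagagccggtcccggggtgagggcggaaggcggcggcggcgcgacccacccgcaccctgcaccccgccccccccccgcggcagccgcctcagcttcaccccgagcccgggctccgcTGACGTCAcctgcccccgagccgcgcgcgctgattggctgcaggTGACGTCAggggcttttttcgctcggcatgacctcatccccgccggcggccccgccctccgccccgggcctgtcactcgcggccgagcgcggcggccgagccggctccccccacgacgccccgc

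The DUSP1 window held 1 full CRE, 125 bases before the start, and 4 cores in all, of which 2 lie within that CRE. Another of its cores, at 111 bases before the start, overlaps an E-box (CACGTG). The core promoter element TATAAA, recognised by the general transcription machinery, stood 30 bases before the start. DUSP8 held 2 full CREs, 118 and 74 bases before its start. A full CRE occurred in 1.85% of the 35116 promoters searched, a core in 24.6%, an E-box in 7.26% and TATAAA in 11.5%. The first DUSP10 window held 4 CCAAT boxes (CCAAT, present in 34.6% of promoters) and none of the 4 elements marked by capitals. The second DUSP10 window held 1 core, 4 bases before its start, and the DUSP3 window 1, at 99 bases before. DUSP2 held 1 E-box, 113 bases before its start. No member's window held an AP-1 site or a C/EBP-ATF site, which were found in 7.71% and 3.62% of all promoters. DUSP14 and DUSP16 held none of the elements searched. The C and G content of these windows was 55.0% for both DUSP10 promoters and 73.3% to 81.0% for the others, against a median of 58.7% over all promoters. A match is a description of letters and not a measured binding site.

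The sequence that the miR-1 vector is designed to raise is shown next, since the comparison of its array with miR-null is the one the study was built on. It is the mature miR-1 of RefSeq (chr20:62554351-62554372, plus strand, GRCh38.p14), with the seed, bases 2 to 8, in capitals. The arrays used here do not report mature miR-1, so its level was not analysed here.
hsa-miR-1-3p: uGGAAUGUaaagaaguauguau

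Vector and control arrays were compared first, since both vector arrays of a line can be set against its control. DUSP1 and DUSP10 were higher on all 4 vector arrays than on the control array of the same line, 2.90-fold and 2.83-fold as a mean over both lines. DUSP2 was higher on the vector arrays of U-2OS, by 2.58-fold, and by 1.20-fold in KHOS, where its level was low. DUSP16 and DUSP3 were higher with a vector in KHOS, by 1.67-fold and 1.35-fold, and were 0.87-fold and 0.92-fold of control in U-2OS, where quantile normalization put both means slightly above control. As a mean of both vector arrays, DUSP8 and DUSP14 differed by at most 1.33-fold in either line on the probe set that stands for each gene. Another DUSP8 probe set differed by 1.96-fold in KHOS.

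DUSP1 removes phosphate from p38, JNK and also ERK. On its probe set 201041_s_at the log2 level was 11.99 on the KHOS miR-1 array, 11.43 on the KHOS miR-null array and 9.89 on the KHOS control array. U-2OS gave 12.70 with miR-1, 13.00 with miR-null and 11.60 in control. The vector arrays thus lay above the control of their own line without overlap, while the U-2OS control stood between both KHOS vector arrays. The log2 difference between the mean of the vector arrays and control was 1.82 in KHOS and 1.25 in U-2OS, 3.53-fold and 2.38-fold. The fitted mean over both lines was 1.54 ± 0.24 (SE, 6 arrays), at rank 30 among 12958 genes ordered from the largest increase. Its other probe sets gave smaller differences. The x_at probe set 201044_x_at, a type that can share signal with related transcripts, differed by 0.78 in each line. The third, 226578_s_at, was lower with a vector by 0.12 in KHOS and higher by 0.37 in U-2OS, at log2 levels of 6.16 to 6.75. Its KHOS values therefore ran opposite to those of the brightest probe set.

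DUSP10 dephosphorylates p38 and JNK and spares ERK. Its probe set 221563_at was at 9.17 with miR-1, 9.15 with miR-null and 7.56 in control in KHOS. The corresponding U-2OS levels were 8.56, 8.57 and 7.18. Both vector arrays of a line lay within 0.03 of each other on this scale, and all 4 were above both controls. The differences from control were 1.60 in KHOS and 1.39 in U-2OS, 3.04-fold and 2.63-fold, with a fitted mean of 1.5 ± 0.15 (SE) at rank 35. The second DUSP10 probe set, 215501_s_at, was at 7.68, 7.65 and 5.91 on the KHOS miR-1, miR-null and control arrays and at 7.36, 7.36 and 5.70 on the U-2OS arrays in that order. It differed from control by 1.75 in KHOS and 1.66 in U-2OS, so both probe sets moved the same way on all vector arrays.

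DUSP2 was first described in activated blood cells. It was at 5.43, 5.24 and 5.07 in KHOS, near the level filter, and at 9.75, 9.82 and 8.42 in U-2OS, for miR-1, miR-null and control. The U-2OS vector arrays were higher than control by 1.33 with miR-1 and 1.40 with miR-null, at rank 47 among the changes within that line. The KHOS arrays were higher by 0.36 and 0.17, and RMA values this close to the floor tend to understate a change.

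**Figure D1:**
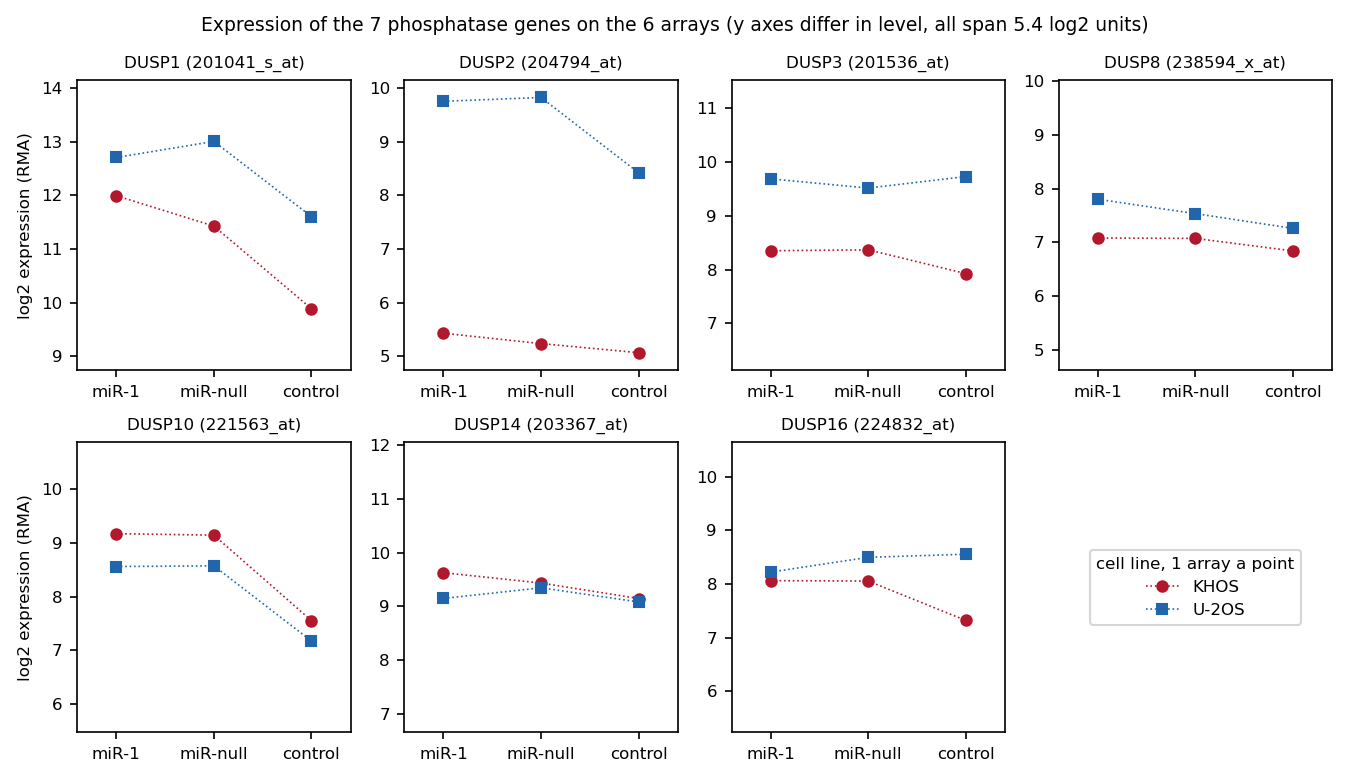
Log2 expression level (RMA) of the 7 phosphatases on each array, by treatment, with KHOS and U-2OS as separate points joined by dotted lines only to guide the eye. DUSP1 and DUSP10 were lower in control than with either vector in both lines, and DUSP2 was at 8.42 or more in U-2OS and 5.43 or less in KHOS.

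The JNK-directed members DUSP8 and DUSP16 had probe sets that disagreed. DUSP16, on 224832_at, was at 8.06, 8.05 and 7.32 on the KHOS miR-1, miR-null and control arrays, and at 8.22, 8.50 and 8.55 on the U-2OS arrays in the same order. Both KHOS vector arrays were thus above control, by 0.74 and 0.73, and both U-2OS vector arrays below it, by 0.33 and 0.06. After quantile normalization the mean U-2OS difference was 0.05 above control in place of -0.19. A second probe set, 224336_s_at, was also higher with a vector in KHOS, by 1.21 with miR-1 and 0.69 with miR-null, and in U-2OS it was higher by 0.02 and 0.19. The sign in U-2OS therefore depended on the probe set and the scaling. The remaining DUSP16 probe sets, 1555399_a_at and 1563505_at, differed from control by at most 0.17 on any vector array.

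DUSP8, on 238594_x_at, was at 7.08, 7.07 and 6.84 in KHOS and at 7.80, 7.53 and 7.26 in U-2OS. This is an x_at probe set. It was higher with a vector by 0.24 in KHOS and 0.41 in U-2OS, and by 0.13 and 0.66 after quantile normalization. On 206374_at the vector arrays were higher by 0.97 in KHOS and 0.04 in U-2OS, so the probe sets disagreed on which line had the larger difference.

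Among the small members, DUSP3, which acts on ERK and JNK, was at 8.35, 8.37 and 7.92 in KHOS and at 9.69, 9.52 and 9.73 in U-2OS on 201536_at. The KHOS vector arrays were above control by 0.43 and 0.44, and those of U-2OS below it by 0.04 and 0.21, with a mean of -0.13 that became 0.06 after quantile normalization. Its other probe sets were above control on all 4 vector arrays. On 201537_s_at the mean difference was 0.71 in KHOS and 0.47 in U-2OS, and on 201538_s_at it was 0.60 and 0.21. DUSP14, identified through its binding to the T cell surface protein CD28, was at 9.62, 9.43 and 9.14 in KHOS and at 9.15, 9.34 and 9.08 in U-2OS, a difference of 0.38 in KHOS and 0.16 in U-2OS that became 0.35 and 0.38 after quantile normalization. It varied least of the members, with 0.54 between its lowest and highest array.

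**Figure D2:**
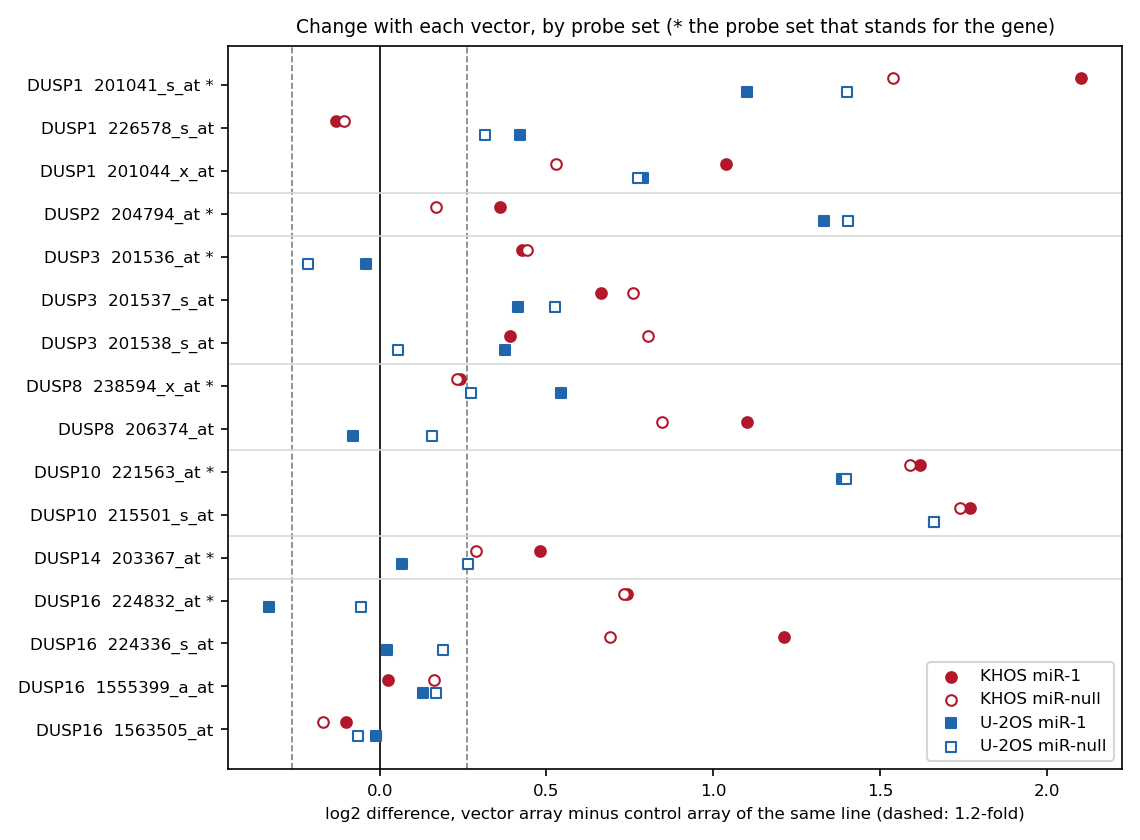
Log2 difference of each vector array from the control array of its line, for all 16 probe sets, with dashed lines at 1.2-fold in each direction. The DUSP10 probe sets lie between 1.39 and 1.77 on all 4 arrays, while DUSP16 and DUSP3 are split by line on the probe sets marked with a star (after quantile normalization their U-2OS means lay 0.05 and 0.06 above control).

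The study's design text sets a change of 1.2-fold as its lower limit. DUSP1 and DUSP10, 2 of the 7 members, were higher than control by at least that much on all 4 vector arrays, as were 3.21% of the 12958 tested genes. No member was lower on all 4, as were 6.2% of genes. In KHOS alone, DUSP1, DUSP3, DUSP10, DUSP14 and DUSP16, 5 of 7 members, were higher on both vector arrays, against 15.8% of genes, and 0 were lower, against 10.6%. In U-2OS alone, DUSP1, DUSP2, DUSP8 and DUSP10, 4 of 7, were higher, against 12.9% of genes, and 0 were lower, against 28.0%. By probe set, 5 of the 16 were higher on all 4 arrays, namely 201041_s_at and 201044_x_at of DUSP1, both of DUSP10 and 201537_s_at of DUSP3, against 2.11% of the 41091 probe sets with a single symbol. No member probe set was lower, against 4.08%. On the log2 scale this limit is 0.263. DUSP8 was just inside it in U-2OS, at 0.27 with miR-null, and just outside it in KHOS, at 0.24 and 0.23, while DUSP14 was just inside it in KHOS, at 0.29 with miR-null. The members were proposed with this contrast, so nothing is read from these counts. The median over the members was 0.32 for vector minus control, and over all tested genes it was -0.03.

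Array controls moved with the vector arrays too. The mean of 18 hybridisation spike-in probe sets was above control by 0.17 with miR-1 and 0.37 with miR-null in KHOS, and by 0.84 and 0.52 in U-2OS. The mean of 3 probe sets for 28S ribosomal RNA was above control by 0.57 and 0.36 in KHOS and by 0.98 and 0.77 in U-2OS. In U-2OS the median gene was lower with a vector by 0.10. The part of these differences in the members' values was not tested.

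The comparison of miR-1 with miR-null asks what the microRNA adds to its vector. For no member was a difference detected, and DUSP10 was nearly identical on both vectors. On 221563_at the miR-1 array minus the miR-null array was 0.03 in KHOS and -0.01 in U-2OS, with a fitted log2 difference of 0.01 ± 0.17 (SE) and a 95% interval of -0.41 to 0.42. DUSP1 was 0.57 higher with miR-1 in KHOS and 0.30 lower in U-2OS, a fitted 0.13 with an interval of -0.52 to 0.79. The lines thus went opposite ways for DUSP1. DUSP2 had a fitted difference of 0.06 (-0.68 to 0.80), DUSP3 of 0.08 (-0.44 to 0.59) and DUSP8 of 0.14 (-0.29 to 0.57). For DUSP16 the value was -0.13 (-0.80 to 0.53) and for DUSP14 it was -0.00 (-0.46 to 0.45). Over the members these intervals reached from -0.80 to 0.80, so they include sizeable differences in either direction.

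With limma, 0% of the 12958 genes passed a Benjamini-Hochberg adjusted p of 0.05 for miR-1 minus miR-null, 78 had an unadjusted p below 0.05, and 0 members were among those. The adjusted p was 0.9999 for each member. The design text's own Mann-Whitney test, run as an exact test of the 2 miR-1 arrays against the other 4, called 0 genes and cannot reach below p = 0.133 without ties. Past 1.2-fold in both lines, 0 members were higher with miR-1, against 0.903% of genes, and 0 were lower, against 2.2%. The median absolute difference between the vectors over all genes was 0.13 in KHOS and 0.17 in U-2OS. The DUSP10 differences were below it in both lines, and those of DUSP1 above it.

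Resting and treated levels were then compared between the lines, which is not the contrast the members were proposed with. DUSP1, DUSP2, DUSP3 and DUSP8 were lower in KHOS than in U-2OS, and DUSP10 was higher. DUSP2 was the furthest apart. Its levels of 5.07 to 5.43 in KHOS and 8.42 to 9.82 in U-2OS gave a fitted difference of -4.08 ± 0.25 (SE, limma adjusted p = 6.38e-05). The KHOS levels lay near the level filter of 5.11 and the floor of the arrays, so the size of this difference is not exact. DUSP3 differed by -1.43 ± 0.17 (adjusted p = 0.000937) and DUSP1 by -1.33 ± 0.22 (adjusted p = 0.00331). DUSP8 was lower in KHOS by a smaller amount, with -0.53 ± 0.15 (adjusted p = 0.0214), and its other probe set gave -0.19 (adjusted p = 0.547). DUSP10 was higher by 0.52 ± 0.14 (adjusted p = 0.0211), while its second probe set gave 0.27 (adjusted p = 0.145), so that call rested on 1 probe set. DUSP16 did not pass, at -0.61 ± 0.22 (adjusted p = 0.0575), although 224336_s_at gave -0.96 (adjusted p = 0.0166). DUSP14 differed by 0.21 ± 0.15 (adjusted p = 0.278, interval -0.16 to 0.58), and by -0.10 after quantile normalization. The DUSP8 and DUSP10 calls were lost when the miR-1 or the miR-null array of either line was left out, with adjusted p of 0.121 and 0.124 for DUSP8 and 0.102 and 0.179 for DUSP10. For DUSP10 the call was also lost after quantile normalization (adjusted p = 0.248).

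The 3 DUSP3 probe sets all put KHOS below U-2OS, with fitted differences of -1.26 on 201537_s_at (adjusted p = 0.00059) and -1.07 on 201538_s_at (adjusted p = 0.00454). For DUSP1, 201044_x_at gave -0.70 (adjusted p = 0.0106) and 226578_s_at gave -0.36 (adjusted p = 0.118). On the control arrays alone the log2 difference of KHOS minus U-2OS was -1.71 for DUSP1, -3.35 for DUSP2, -1.81 for DUSP3 and 0.38 for DUSP10. For DUSP16 it was -1.23, wider than the fitted value, since the vector arrays of both lines stood closer together.

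Differences between the lines were common. In this contrast 54.8% of the 12958 tested genes passed, so that 5 of 7 members passed is not read as particular to them. Of all genes, 30.3% were higher in KHOS (3928 genes) and 24.5% lower (3175 genes), beside 1 member higher and 4 lower. After quantile normalization 3084 were higher and 4218 lower, and the median over all genes was -0.18 in place of -0.00. The median over the members was -0.61. Of the other classical MAPK phosphatases, DUSP4, DUSP6 and DUSP9 reached the level filter only through KHOS, so their levels are given as a description. DUSP6, an ERK phosphatase induced by ERK signalling, was at 10.81, 10.81 and 11.33 on the KHOS miR-1, miR-null and control arrays and at 4.16, 4.25 and 4.54 on the U-2OS arrays. DUSP4, a nuclear phosphatase, was at 9.34 to 9.46 in KHOS and 4.80 to 5.31 in U-2OS, and DUSP9 at 6.12 to 6.53 in KHOS and 4.79 to 5.23 in U-2OS. The U-2OS levels of these genes lay near the floor of the arrays, so the size of each difference is not exact. DUSP5, a nuclear ERK phosphatase, was higher in KHOS by 0.91 (adjusted p = 0.00219), and DUSP7 did not pass, at -0.22 (adjusted p = 0.25), but passed at -0.54 after quantile normalization (adjusted p = 0.0163).

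**Figure D3:**
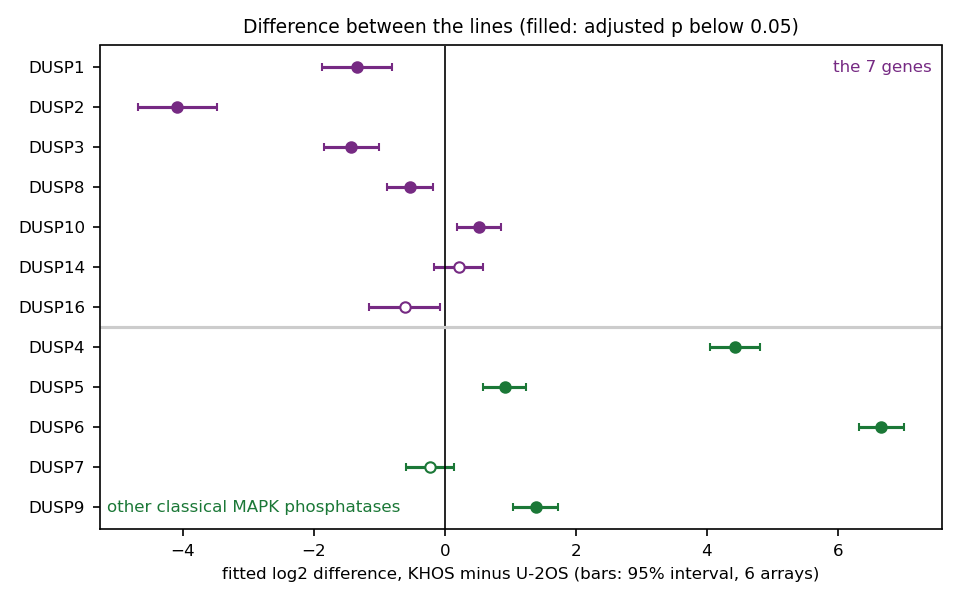
Fitted log2 difference of KHOS minus U-2OS for the 7 phosphatases and for the other classical MAPK phosphatases, with bars for the 95% interval over 6 arrays and filled points where the limma adjusted p was below 0.05. DUSP2 lies at -4.08 with KHOS levels near the floor of the arrays, so its size is not exact. The points of DUSP4, DUSP6 and DUSP9 rest on U-2OS levels near that floor, so their size, interval and call are not read.

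Whether the change with a vector differed between KHOS and U-2OS was tested in a separate fit with a line by vector term. None of the 7 members passed, against 2.28% of all genes, made up of 2% with the higher change in KHOS and 0.286% with the lower. Over all genes the median of this difference was 0.14, and -0.05 after quantile normalization. DUSP2 had a smaller change in KHOS than in U-2OS, by -1.10 ± 0.24 (SE, interval -1.66 to -0.54, limma adjusted p = 0.0598). Its KHOS levels lay near the floor, where RMA values tend to understate a change, so the size of that difference is not exact. For DUSP16 the KHOS change was larger by 0.93 ± 0.25 (interval 0.35 to 1.51, adjusted p = 0.0913) and for DUSP3 by 0.56 ± 0.24 (adjusted p = 0.214). These 3 had an unadjusted p below 0.05. DUSP10 differed by 0.21 ± 0.23 (interval -0.31 to 0.73, adjusted p = 0.613) and DUSP1 by 0.57 ± 0.35 (adjusted p = 0.370). Under a level filter at the 75th percentile the adjusted p was 0.0285 for DUSP2 and 0.0486 for DUSP16. DUSP2 reached that filter only through its U-2OS levels, so its call there is not read. After quantile normalization neither passed, at -1.32 for DUSP2 (adjusted p = 0.0931) and 0.58 for DUSP16 (adjusted p = 0.250). With a prior variance that followed the mean, DUSP2 passed (0.0373) and DUSP16 did not (0.0585). Which of them passed also changed with the vector array left out. The spread in this fit is that between the miR-1 and miR-null arrays of a line, and the control of each line is 1 array.

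The rest of the pathway was described from 7 lists of 70 genes, chosen with earlier results of these data known. Of these, 67 had a probe set and 60 were tested, and 9 were higher and 2 lower than control on all 4 vector arrays, beside the 3.21% and 6.2% of all genes. The median vector minus control difference was -0.01 over the 60. Among the nuclear and mRNA-level targets 5 of 11 were higher, namely FOS, ATF3, DDIT3, JUN and ZFP36. In U-2OS alone, 5 of the 11 were lower on both vector arrays, beside 28.0% of all genes. The median vector minus control difference of this list was 0.01, with 0.75 in KHOS and -0.00 in U-2OS. FOS, a partner of JUN in AP-1, was higher by 4.16 in KHOS and 1.99 in U-2OS. ATF3, a stress-induced transcription factor, was higher by 3.29 and 2.37, and DDIT3 (CHOP), a factor of the unfolded protein response, by 2.06 and 1.85. JUN was higher by 0.95 and 0.79, and ZFP36, which destabilises mRNAs, by 0.84 and 0.58.

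Of the scaffolds and activators, 2 of 9 tested were higher, GADD45A by 1.99 in KHOS and 1.26 in U-2OS and GADD45B by 1.51 and 1.95. Both bind the upstream kinase MAP3K4. The kinases themselves differed less. MAPK8, which encodes JNK1, was higher by 0.47 and 0.27 and was the only 1 of 5 JNK and p38 genes tested that did. In U-2OS alone, 2 of these 5 were higher on both vector arrays and 1 lower, beside 12.9% and 28.0% of all genes. The p38 gene MAPK14 and the activating kinases MAP2K3 and MAP2K7 had no probe set with a single symbol, and MAPK13 was below the level filter. Of the 17 activating kinases tested, MAP3K9 alone passed on all 4 arrays, lower by 0.40 in KHOS and 0.87 in U-2OS. In U-2OS alone, 7 of the 17 were lower on both vector arrays, beside 28.0% of all genes, and in KHOS 1 was, beside 10.6%. None of the 7 kinases downstream of p38 and none of the 6 other atypical phosphatases passed on all 4 arrays. Among the other classical phosphatases, DUSP5 was higher by 0.51 and 0.38, and DUSP6 lower by 0.52 and 0.33, in U-2OS at levels below the filter. In the miR-1 contrast 0 list genes passed the test.

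**Figure D4:**
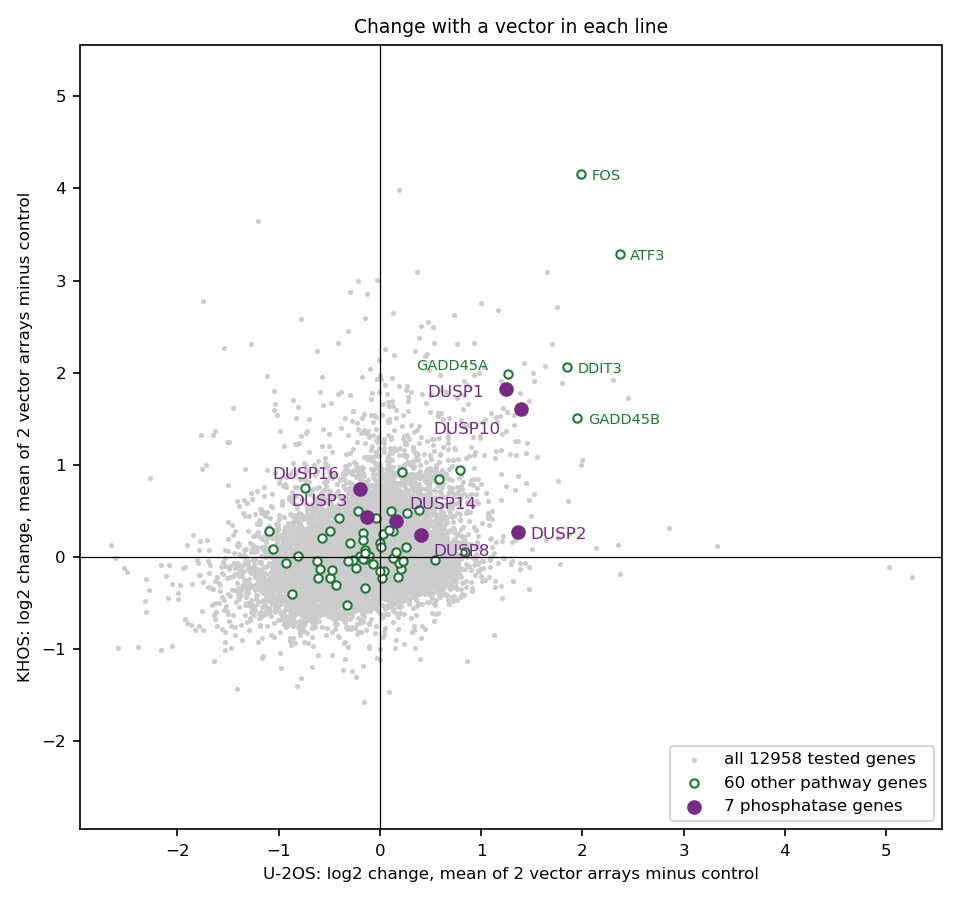
Log2 difference of the mean of both vector arrays from control, in KHOS on the vertical axis and U-2OS on the horizontal, for all 12958 tested genes (grey), 60 other pathway genes (green rings) and the 7 phosphatases (purple). DUSP1 and DUSP10 lie at 1.25 or more on both axes near GADD45A, while DUSP2 lies along the U-2OS axis.

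The genes most like DUSP1 were ranked by Pearson's r over the 6 arrays, after each line was centred on its own mean, among 1458 genes whose centred values spanned at least 1 log2 unit. With 6 points, 2 of them controls, this is a description. ZNF165 came first at 0.9992, and it was higher with a vector by 2.11 in KHOS and 1.42 in U-2OS. CYLD, a deubiquitinase, followed at 0.9984 with differences of 1.29 and 0.99. KBTBD8 was at 0.9981, RNF217 at 0.9966 and HSPB8, a small heat shock protein, at 0.9961. Among the members, DUSP10 reached 0.967, DUSP14 0.941, DUSP8 0.739, DUSP2 0.717, DUSP16 0.640 and DUSP3 0.539. The limit on span was not applied to the members. Before centring, DUSP14 spanned 0.54 and DUSP8 0.96, so their r rests on small differences.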

How the data were processed

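Expression was measured on 6 arrays, 1 for each line and treatment. The authors deposited log2 expression values computed in Qlucore 3.2 by RMA, per the series' design text, and these were used as deposited. Their range was 2.83 to 14.90, and 0 were missing. A scaling to each gene's average is named there too, but the values were not centred per gene. RMA compresses small differences near the floor. The number of arrays limits the precision, and pooling removes the spread between flasks.

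Of 54675 probe sets, 62 controls were left out. The annotation gave 41091 probe sets 1 symbol, 1801 several and 11721 none, and 41037 matched a RefSeq gene by Entrez identifier. Each of 19775 genes took its probe set of highest mean, and the 12958 genes with a mean of at least 5.11 were tested.

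Tests used lmFit and eBayes of limma 3.58.1 (R 4.3.3), with Benjamini-Hochberg adjustment over all tested genes and a threshold of 0.05. Line and treatment were additive terms, and the line difference in the vector change came from a fit with their product. The code was tested on simulated data. The members and lists were chosen with earlier results of these data known. Named were all members and their probe sets, up to 3 list genes each way past 1.2-fold on all 4 vector arrays, and the 5 genes most like DUSP1. JUN, ZFP36 and the classical phosphatases in the line contrast were named after their values were seen. Alternatives changed the normalization, level filter, probe set, prior variance, fold limit, test and arrays.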

Additional observations from a re-analysis of the deposited data

How the results depend on the processing

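With 1 array per line and treatment, signal near the array floor and 1 control array per line limit these results. The count for miR-1 minus miR-null was 0 under every alternative run. For KHOS minus U-2OS, 7103 genes passed, 4713 with a level filter at the 75th percentile, and 4471 to 8765 when each array was left out in turn, with 8765 without either control array. Without the miR-1 or miR-null arrays of either line, and with probe sets averaged, the DUSP8 call was lost (adjusted p = 0.0585 for the average). For DUSP10 the line call was lost after quantile normalization (0.19, adjusted p = 0.248), and DUSP16 passed after quantile normalization (-0.95, adjusted p = 0.00571), with probe sets averaged (0.0119), without the miR-1 array of either line (0.0289), on 224336_s_at (0.0166), on 1555399_a_at (0.00469) and when the prior variance followed the mean (0.0492). For the line difference in the vector change, 296 genes passed, 16 after quantile normalization, 553 with the 75th percentile filter, 863 with that prior, and 6 to 1531 when arrays were left out. Leaving out KHOS miR-1 gave 7, KHOS miR-null 6, U-2OS miR-1 440 and U-2OS miR-null 1531, and no value exists without either control. With probe sets averaged, DUSP2, which has a single probe set, kept its value of -1.10 in that test. Its adjusted p of 0.0335 there moved only because the other genes in the fit changed. For the 2 members past 1.2-fold on all vector arrays, leaving out an array drops the comparisons that use it, so the count could not fall. It was 2 to 5. The 4 without the KHOS control and the 5 without the U-2OS control are the counts of U-2OS alone and KHOS alone.

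Some differences changed sign, and the cause was not tested beyond the probe set, scaling or array named. For miR-1 minus miR-null, DUSP3 was -0.025 with probe sets averaged, -0.10 on 201537_s_at and -0.047 on 201538_s_at. DUSP14 was 0.056 after quantile normalization. DUSP16 was 0.0043 with probe sets averaged, 0.18 on 224336_s_at and 0.062 on 1563505_at. Leaving out arrays gave ranges of -0.33 to 0.60 for DUSP1, -0.31 to 0.43 for DUSP2, -0.13 to 0.29 for DUSP3, -0.0023 to 0.28 for DUSP8, -0.060 to 0.077 for DUSP10, -0.20 to 0.20 for DUSP14 and -0.47 to 0.21 for DUSP16. For KHOS minus U-2OS, DUSP14 was -0.10 after quantile normalization. For the line difference in the vector change, DUSP1 was -0.49 on 226578_s_at, DUSP8 0.38 with probe sets averaged and 0.93 on 206374_at, and DUSP16 -0.056 on 1555399_a_at and -0.10 on 1563505_at. Quantile normalization gave -0.10 for DUSP10 and -0.026 for DUSP14. For vector minus control, DUSP16 was -0.086 on 1563505_at, and leaving out arrays gave -0.19 to 0.74 for DUSP16 and -0.13 to 0.43 for DUSP3. The ends of these ranges came from leaving out a control array, which leaves the other line alone. They are therefore the U-2OS and KHOS differences given above.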

Other observations

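In the test of the line difference in the vector change, 2 genes of the pathway lists passed, both named after their values were seen. TAB3, an adaptor that recruits the kinase TAK1, was higher than control with a vector by 0.28 in KHOS and lower by 1.09 in U-2OS, a signed log2 difference of 1.38 (limma adjusted p = 0.0446). MEF2C, a transcription factor phosphorylated by p38, was higher by 0.75 in KHOS and lower by 0.74 in U-2OS, a signed log2 difference of 1.49. Its U-2OS levels of 4.25 to 5.08 were all below the level filter. It was thus tested through its KHOS level, and its size and call are not read. Over all genes, 296 passed in this test and 16 after quantile normalization.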
